A study of Homo sapiens with 6 samples.

Results

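The genes described here encode the machinery that moves secretory and membrane proteins into the endoplasmic reticulum and carries them from there to the Golgi and back. They are 41 of the 60624 genes in the table and were chosen by function, from a list of names covering signal recognition, the translocon, signal peptidase and the COPII and COPI vesicle coats. All 41 were found once each, and all 41 passed the expression filter of a mean of at least 1 TPM (a level scaled for the length of the gene and the total of the library). RNA came from SV-HUC-1, an established human urothelial epithelial cell line immortalised with SV40. The cells were kept for 3 days with DCBQ, which is 2,6-dichloro-1,4-benzoquinone, a halogenated quinone formed when water is disinfected. Control cells had a blank solution for the same time. Each group has 3 poly(A)-selected libraries, and the labels give no concentration. Whether a group's libraries stem from separate cultures is not stated, so the p-values here reflect the spread among 3 libraries that may be technical repeats.

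A protein bound for secretion carries a signal peptide, which the signal recognition particle (SRP) binds as it leaves the ribosome. SRP docks on its receptor in the membrane of the endoplasmic reticulum and hands the ribosome to the SEC61 channel, through which the chain passes while signal peptidase removes the signal. Folded cargo then leaves in vesicles coated with COPII, and escaped residents return from the Golgi in vesicles coated with COPI. Urothelial cells use this route to build the uroplakin plaques and glycoproteins of their surface.

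The libraries listed 26874 to 27350 genes above 0. TPM keeps no record of depth, so the depth is unknown. Of 11 urothelial and epithelial markers, 9 had a mean of at least 1 TPM, while TP63 was near 0 and UPK3A was listed at 0. The 11 together ran from 2917 to 3067 TPM in control and from 4789 to 5035 TPM in DCBQ. Keratin genes made up most of this sum, with means in control and DCBQ of 694 and 1283 TPM for KRT8 and 792 and 1754 TPM for KRT19. UPK1B also rose (19.8 and 81.9 TPM), while EPCAM (238 and 236 TPM) and CDH1 (189 and 175 TPM) did not. Of the 14 fibroblast, immune and endothelial markers, 3 had a mean of at least 1 TPM (COL1A1, CD68 and CDH5), each higher in DCBQ. The summed level of each list in control and DCBQ ran from 6.84 to 7.80 and from 14.8 to 16.5 TPM for fibroblasts, from 3.07 to 4.70 and from 8.25 to 9.01 TPM for immune cells, and from 3.89 to 4.97 and from 8.12 to 14.3 TPM for endothelium. The defining markers COL1A2, COL3A1, DCN, LUM and LYZ were at 0 in all libraries. The part of other cells in the results was not tested, and in bulk RNA fewer cells of a type and less RNA per cell cannot be told apart.

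In TPM as deposited, genes of the machinery were called in both directions in DCBQ, and the balance changed with library scaling, as given below. Of the 41 genes 11 rose, 13 fell and 17 did not pass the test, by limma on log2(TPM + 1) with an adjusted p under 0.05. The 24 called members stand beside 52.9% of all tested genes called in either direction. By direction, the shares are 26.8% higher and 31.7% lower, beside 13.4% higher and 39.5% lower among all 16734 tested genes. The median difference (DCBQ minus control) was -0.05 on the log2(TPM + 1) scale for these genes and -0.21 for all tested genes. In 29 of the 41 genes (70.7%) control and DCBQ libraries did not overlap, which was so in 61.2% of all tested genes. The risers were SRP9, SRP14, SEC61B, SEC61G, SEC13, SEC23A, SEC24D, SAR1A, COPB2, COPG1 and COPZ1. The genes that fell were SRP19, SRP68, SRP72, SRPRA, SRPRB, SEC61A2, SEC62, SEC63, SSR3, SEC11C, SEC24B, SAR1B and SEC16A.

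These counts depend on how libraries are scaled. After median-of-ratios scaling, which centres the libraries on each other by construction, 22 members (53.7%) were higher and 5 (12.2%) lower, beside 23.9% and 23.1% of all tested genes. The 5 that stayed lower were SRPRA, SEC61A2, SEC62, SEC63 and SEC11C. Of the 24 calls as deposited, 13 were made in the same direction under all 18 alternatives. They are the increases of SRP9, SRP14, SEC61B, SEC61G, SEC13, SEC24D, SAR1A, COPB2 and COPZ1, and the decreases of SRPRA, SEC61A2, SEC62 and SEC11C. Mitochondrially encoded genes took 20.9% to 22.2% of TPM in control and 27.96% to 28.8% in DCBQ, and each library's TPM has a fixed total. With those genes left out and TPM rescaled, 17 members were higher and 10 lower. Ratios of TPM between members within a library are given beside the levels. A single factor per library, as in median-of-ratios scaling, leaves them unchanged, while quantile normalization and removal of the length trend can change them.

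**Figure D1:**
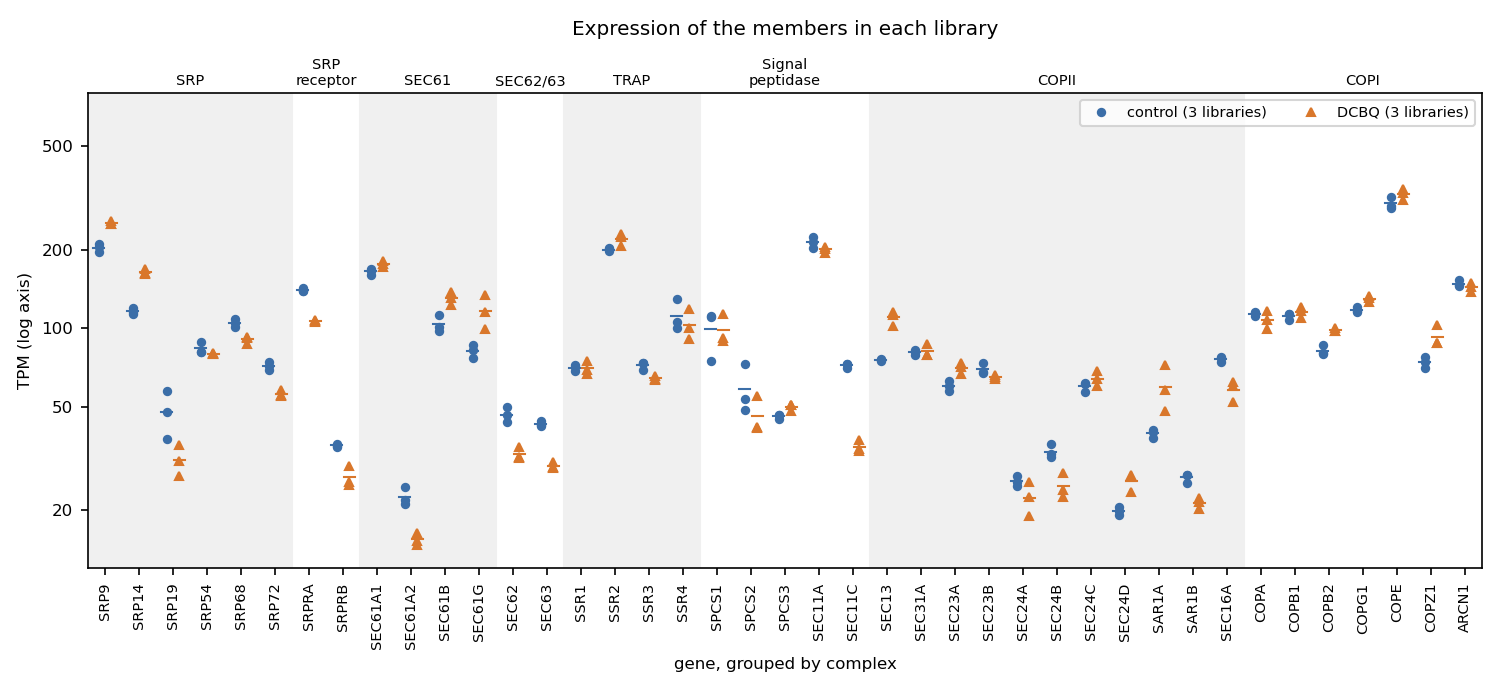
TPM (log axis) of each of the 41 genes in the 3 control libraries (circles) and the 3 DCBQ libraries (triangles), with short lines at the group means, grouped by complex. Most genes lie between 20 and 330 TPM, and SEC11C, SEC62, SEC63 and SRPRA show DCBQ points wholly below the control points.

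**Figure D2:**
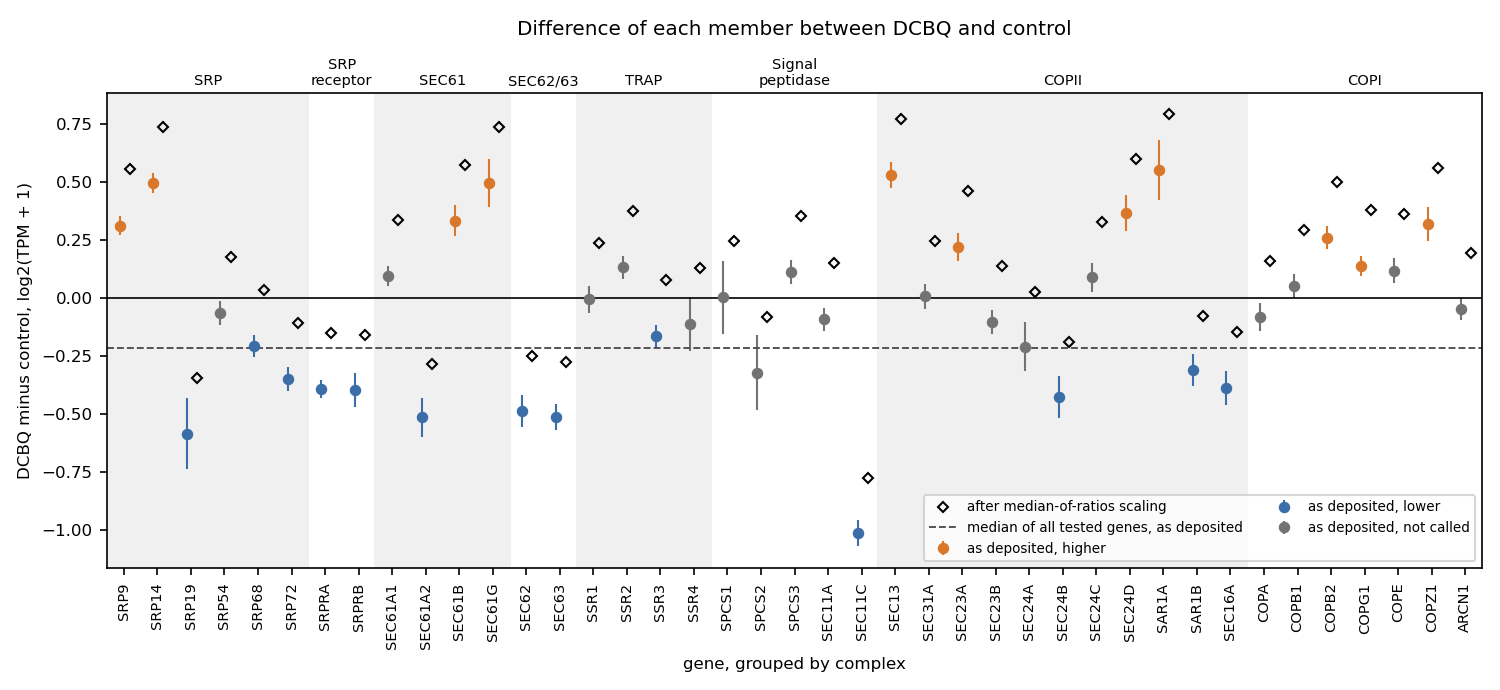
Difference of each gene between DCBQ and control on the log2(TPM + 1) scale with its standard error (filled points, coloured by limma call) and after median-of-ratios scaling (open diamonds). The dashed line is the median of all tested genes (-0.21). SEC11C is the lowest at -1.01 and SAR1A the highest at 0.55, and all 7 COPI diamonds lie above 0.

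RefSeq windows (GRCh38.p14) running from 250 bases before to 50 bases after the gene start were found for 38 of the 41 members, all but SEC24D, SPCS1 and SRPRA. TGACGTGG, the core of the unfolded protein response element that XBP1 and ATF6 are known to bind, occurred on either strand in 8 of the 38 windows (21.1%). It occurred in 0.729% of all 35116 windows and in 0.928% of the 10134 windows of tested protein-coding genes. The 8 members are COPA, COPB1, COPB2, SEC16A, SEC23A, SEC24A, SEC62 and SRP19, of which 2 rose, 3 fell and 3 did not pass the test. Among the 79 windows found for the 98 other secretory genes described below, 7 (8.86%) held it. The endoplasmic reticulum stress element, a CCAAT and a CCACG with 9 bases between them, was in 0 of the 38 windows and 0.0769% of all windows. HSPA5, which encodes the main chaperone of the endoplasmic reticulum, has 1 such element. TGACGTCA (cyclic AMP response element) and TGATGCAA (bound by ATF4 with C/EBP factors) were in 0 of the 38 windows, and in 1.85% and 0.866% of all windows. In the windows of tested protein-coding genes their shares were 3.27% and 0.474%. At shares this low, 0 of 38 windows does not show that the letters are rarer in members. The CCAAT box was in 15 of the 38 (39.5%), in 34.6% of all windows and in 36.4% of those of tested protein-coding genes. Letters that match are a description and not evidence of binding.

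The stretches below show the core (capitals, CCACGTCA on the other strand) in members whose match lies wholly before the RefSeq start. For contrast, the exact match of HSPA5 to the stress element is also shown (capitals). The COPB2 match ends 155 bases before the start (chr3:139389790-139389889, minus strand), and that of HSPA5 47 bases before it (chr9:125241350-125241449, minus strand). The others are shown as 30 bases because exons of protein-coding genes overlap them: COPB1 (chr11:14499841-14499870, minus strand), SEC62 (chr3:169966777-169966806, plus strand), SRP19 (chr5:112861164-112861193, plus strand) and SEC24A (chr5:134648595-134648624, plus strand, inside an exon of the opposite gene SAR1B).
COPB2: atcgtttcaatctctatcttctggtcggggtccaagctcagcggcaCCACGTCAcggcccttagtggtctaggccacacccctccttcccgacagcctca
COPB1: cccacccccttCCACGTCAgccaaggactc
SEC62: ccccctcctcgctCCACGTCAgagggaacc
SRP19: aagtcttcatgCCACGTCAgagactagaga
SEC24A: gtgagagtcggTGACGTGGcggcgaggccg
HSPA5: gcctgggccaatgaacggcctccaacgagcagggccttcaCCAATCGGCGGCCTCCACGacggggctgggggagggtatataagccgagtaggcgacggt

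In SRP as deposited, both proteins of the Alu domain rose and 3 of the 4 proteins of the S domain fell. All 3 lost that call after median-of-ratios scaling, where SRP68 turned positive and SRP had 3 genes higher and 0 lower. For SRP, its receptor, SEC61 and SEC62 with SEC63, the reference is 13.4% higher and 39.5% lower among all tested genes as deposited. After median-of-ratios scaling it is 23.9% and 23.1%. The Alu domain, made with SRP9 and SRP14, slows elongation while the ribosome docks, and the S domain holds SRP54, which binds the signal peptide. SRP14 (chromosome 15, 40035739 to 40039188, minus strand) stood at 116, 113 and 120 TPM in control libraries 1 to 3 and at 163, 169 and 161 TPM in DCBQ libraries 1 to 3. Every DCBQ library was above every control library, and the means differed 1.41-fold (log2 difference 0.50 with SE 0.043, limma adjusted p = 4.5e-05). SRP9 stood at 196, 205 and 211 TPM in control and 251, 252 and 258 TPM in DCBQ, again without overlap (1.24-fold, log2 difference 0.31, adjusted p = 0.00042). The ratio of SRP14 to SRP9, which bind each other as a heterodimer, went from 0.571 ± 0.018 to 0.649 ± 0.024 (SD, n = 3 per group).

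Of the S domain, SRP72, which pairs with SRP68, fell from 71.7 ± 2.5 to 56.1 ± 1.7 TPM (log2 difference -0.35, adjusted p = 0.00069). SRP68 fell from 105 ± 3.7 to 90.5 ± 3.0 TPM (log2 difference -0.21, adjusted p = 0.0080). Its difference was near the median of all tested genes (-0.21), and it turned to 0.04 (adjusted p = 0.56) after median-of-ratios scaling, where SRP72 had -0.11 (adjusted p = 0.12). SRP19, which helps SRP54 onto the particle's RNA, had 57.4, 47.8 and 37.7 TPM in control and 30.8, 35.6 and 27.1 TPM in DCBQ. The control libraries of SRP19 spread widely, and the groups were close without overlapping (log2 difference -0.58, SE 0.15, adjusted p = 0.013, and adjusted p = 0.093 after median-of-ratios scaling). SRP54 had 83.6 ± 4.3 TPM in control against 79.8 ± 0.65 under DCBQ (adjusted p = 0.32). After median-of-ratios scaling SRP54 was called higher (0.18, adjusted p = 0.036).

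Both chains of the SRP receptor fell. SRPRA (chromosome 11, 126262919 to 126269144, minus strand), the GTPase that meets SRP54, had 139, 139 and 143 TPM in control and 107, 106 and 108 TPM in DCBQ. The libraries of each group lay close together and far from the other group (1.32-fold lower in DCBQ, log2 difference -0.39, SE 0.040, adjusted p = 0.00010). SRPRB, the membrane-anchored chain, went from 35.5 ± 0.38 to 26.7 ± 2.4 TPM (log2 difference -0.40, adjusted p = 0.0024). The ratio of SRPRB to SRPRA was 0.253 ± 0.0066 in control and 0.2504 ± 0.023 in DCBQ, with overlapping groups. After median-of-ratios scaling SRPRA had -0.15 (adjusted p = 0.031) and SRPRB -0.16 (adjusted p = 0.17).

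In the SEC61 channel the small chains rose, the minor alpha paralog fell and the main alpha chain did not pass the test. SEC61G (chromosome 7, 54752250 to 54759974, minus strand), the gamma chain that clamps the pore, had 76.6, 82.1 and 86.5 TPM in control and 134, 99.5 and 116 TPM in DCBQ. All DCBQ values were above all control values, although the DCBQ libraries differed among themselves (1.43-fold, log2 difference 0.50, SE 0.10, adjusted p = 0.0040). SEC61B, the beta chain, had 112, 97.1 and 101 TPM in control and 138, 123 and 130 TPM in DCBQ (1.26-fold, log2 difference 0.33, adjusted p = 0.0035). SEC61A1, which forms the pore, had 165 ± 4.9 TPM in control and 177 ± 4.6 in DCBQ (log2 difference 0.10, adjusted p = 0.093), and 0.34 with adjusted p = 0.00049 after median-of-ratios scaling. SEC61A2, its less abundant paralog, fell from 22.5 ± 1.8 to 15.4 ± 0.89 TPM (1.46-fold lower, log2 difference -0.51, adjusted p = 0.0012). SEC61A2 shares 387 of its exon bases (9.88%) with NUDT5 on the opposite strand, and the use of strand is not given in the sources used here. The ratio of SEC61A2 to SEC61A1 went from 0.137 ± 0.015 to 0.0875 ± 0.0027.

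SEC62 and SEC63, which join the channel for short or slowly gated precursors and recruit HSPA5 to it, both fell. SEC62 had 43.8, 46.3 and 49.6 TPM in control and 31.9, 34.96 and 31.9 TPM in DCBQ, and SEC63 44.1, 42.4 and 42.1 TPM in control and 29.2, 29.3 and 30.6 TPM in DCBQ. For both genes the highest DCBQ library lay well below the lowest control library. The log2 differences were -0.49 (adjusted p = 0.00056) for SEC62 and -0.51 (adjusted p = 0.00014) for SEC63, and after median-of-ratios scaling -0.25 and -0.28 (adjusted p = 0.016 and 0.0036). Against SEC61A1, the ratio went from 0.282 ± 0.014 to 0.186 ± 0.0058 for SEC62 and from 0.260 ± 0.014 to 0.168 ± 0.0061 for SEC63, without overlap between the groups.

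The TRAP complex, a partner of SEC61 that helps some signal peptides open the channel, had 1 gene lower, 0 higher and 3 that did not pass the test, and 2 higher and 0 lower after median-of-ratios scaling. Among all tested genes 13.4% were higher and 39.5% lower as deposited, and 23.9% and 23.1% after that scaling. SSR3 fell from 72.2 ± 2.5 to 64.3 ± 1.3 TPM (log2 difference -0.16, adjusted p = 0.023), which turned to 0.08 (adjusted p = 0.23) after median-of-ratios scaling. SSR2 had 200.3 ± 2.8 TPM in control against 219.9 ± 13 under DCBQ, a difference of 0.13 (adjusted p = 0.053). The 2 called higher after median-of-ratios scaling were SSR2 (0.38, adjusted p = 0.0016) and SSR1 (0.24, adjusted p = 0.0045). As deposited, SSR1 had 70.3 ± 1.9 and 70.1 ± 4.1 TPM, and SSR4 112 ± 16 and 103 ± 14 TPM, in both cases with overlapping groups (adjusted p = 0.95 and 0.45). A p that misses the threshold does not show that these levels were equal.

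In signal peptidase, 1 of the 2 alternative catalytic chains fell to about 0.49 of its control level and the other did not pass the test. SEC11C (chromosome 18, 59139477 to 59158836, plus strand) had 72.8, 72.9 and 70.1 TPM in control and 37.3, 34.3 and 33.7 TPM in DCBQ. The values hardly varied within a group, and the difference was the largest in size among the 41 members on the log2 scale (2.05-fold lower, log2 difference -1.01, SE 0.058, adjusted p = 5.2e-06). After median-of-ratios scaling its difference was -0.77 (adjusted p = 7.0e-05). SEC11A, the other catalytic chain, had 203, 225 and 214 TPM in control and 205, 195 and 202 TPM in DCBQ, with overlapping groups (adjusted p = 0.15). The ratio of SEC11C to SEC11A went from 0.337 ± 0.019 to 0.175 ± 0.0078. Of the accessory chains, SPCS3 had 46.0 ± 0.96 TPM in control against 49.9 ± 1.7 under DCBQ (adjusted p = 0.10). After median-of-ratios scaling SPCS3 was called higher (0.35, adjusted p = 0.00050). SPCS1 and SPCS2 varied widely within groups. SPCS1 had 99.0 ± 21 and 98.2 ± 13 TPM, and 50.7% of its exon bases lie in exons of NEK4 on the opposite strand. SPCS2 had 58.2 ± 13 and 46.1 ± 7.7 TPM (adjusted p = 0.13), beside 28.2 TPM summed over 4 pseudogenes named after it, so its reads may be split among copies.

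Of the 11 COPII genes 4 were higher and 3 lower as deposited, and 6 higher and 0 lower after median-of-ratios scaling. The shares of all tested genes were 13.4% and 39.5% as deposited, and 23.9% and 23.1% after that scaling. Coat assembly begins when the GTPase SAR1 is loaded at exit sites organised by SEC16A, and it recruits SEC23 with SEC24, which picks cargo, then the outer cage of SEC13 and SEC31A. SAR1A (chromosome 10, 70147289 to 70170523, minus strand) had 37.9, 40.0 and 40.8 TPM in control and 57.8, 72.2 and 48.0 TPM in DCBQ. The DCBQ libraries lay apart from each other but all above control (means of 39.6 ± 1.5 and 59.4 ± 12 TPM, log2 difference 0.55, SE 0.13, adjusted p = 0.0072). Its paralog SAR1B, the form linked to chylomicron export, had 27.4, 25.5 and 27.3 TPM in control and 20.3, 21.5 and 22.3 TPM in DCBQ. SAR1B thus went the other way (log2 difference -0.31, adjusted p = 0.0061), though after median-of-ratios scaling its difference was -0.08 (adjusted p = 0.35). The ratio of SAR1B to SAR1A went from 0.676 ± 0.044 to 0.371 ± 0.085. SAR1B and SEC24A lie head to head on opposite strands of chromosome 5 and share 385 exon bases, 3.51% of those of SAR1B.

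SEC13, a cage protein that also serves in the nuclear pore, had 75.5, 76.3 and 75.0 TPM in control and 113, 102 and 116 TPM in DCBQ. The control libraries were nearly level and all DCBQ libraries were well above them (1.46-fold, log2 difference 0.53, SE 0.056, adjusted p = 0.00012). Its partner SEC31A had 80.9 ± 1.8 and 81.4 ± 4.6 TPM (adjusted p = 0.92), and was called higher after median-of-ratios scaling (0.25, adjusted p = 0.0041). The ratio of SEC31A to SEC13 went from 1.07 ± 0.021 to 0.744 ± 0.093. SEC16A, the exit site scaffold, fell by 0.39 on the log2 scale, with means of 76.1 ± 1.8 TPM in control and 58.1 ± 5.5 TPM in DCBQ (adjusted p = 0.0024, and -0.15 with adjusted p = 0.066 after median-of-ratios scaling).

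Of the SEC23 and SEC24 paralogs, which form the inner coat, SEC23A and SEC24D rose and SEC24B fell. SEC24D had 19.8, 20.6 and 19.1 TPM in control and 23.5, 26.9 and 27.4 TPM in DCBQ, without overlap (1.31-fold, log2 difference 0.37, adjusted p = 0.0051). SEC23A had 60.2 ± 2.6 TPM in control and rose to 70.3 ± 3.6 in DCBQ (a difference of 0.22, adjusted p = 0.014), a call lost without control library 3 (0.19, adjusted p = 0.051). SEC24B fell from 33.6 ± 2.2 to 24.8 ± 2.8 TPM (log2 difference -0.43, adjusted p = 0.0046), a call that ended after median-of-ratios scaling (-0.19, adjusted p = 0.081). SEC23B, SEC24A and SEC24C had differences of -0.10, -0.21 and 0.09 and did not pass the test. After median-of-ratios scaling SEC24C was called higher (0.33, adjusted p = 0.0013), and SEC23B and SEC24A were not called. As ratios, SEC23B to SEC23A went from 1.16 ± 0.11 to 0.923 ± 0.032, SEC24D to SEC24C from 0.331 ± 0.0053 to 0.406 ± 0.021, and SEC24B to SEC24A from 1.30 ± 0.095 to 1.11 ± 0.065.

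The COPI coat, a complex of 7 proteins recruited as a unit to the Golgi, had 3 genes higher and 0 lower. Those are 42.9% and 0%, beside 13.4% and 39.5% of all tested genes. COPB2, the beta prime chain, had 85.8, 80.6 and 79.8 TPM in control and 97.8, 100.3 and 97.5 TPM in DCBQ (1.20-fold, log2 difference 0.26, SE 0.048, adjusted p = 0.0021). COPZ1, the zeta chain, had 70.2, 77.5 and 74.3 TPM in control and 103, 87.6 and 88.0 TPM in DCBQ (1.25-fold, log2 difference 0.32, adjusted p = 0.0067). In both genes every DCBQ library exceeded every control library. COPG1, the gamma chain, had 117 ± 2.6 TPM in control and rose to 129 ± 3.4 in DCBQ (log2 difference 0.14, adjusted p = 0.027), and its call was lost in 5 of 18 alternatives, of which 4 left out 1 library (control 1, control 2, DCBQ 1 or DCBQ 3). COPE, COPA, COPB1 and ARCN1 had overlapping groups and differences of 0.12, -0.08, 0.05 and -0.05. Relative to the median of all tested genes the coat stood higher, and after median-of-ratios scaling all 7 genes were called higher, with a median of 0.36 (5 of 7 under quantile normalization). Of all tested genes, 23.9% were called higher after median-of-ratios scaling and 22.8% after quantile normalization. In the sum of the 7 genes, control libraries had 973, 935 and 937 TPM and DCBQ libraries 1020, 1010 and 1012 TPM. The sums did not overlap (two-sided exact permutation p = 0.10, the smallest that 20 labellings can give). They are of TPM as deposited, and no share without overlap was computed for sums of other genes.

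Within complexes, 23 ratios between members were compared, and the groups did not overlap for 17 of them, 5 higher and 12 lower in DCBQ. The direction depends on which gene is the numerator, and several pairs share SEC61A1 or SSR1 as denominator. For the levels of single genes the share without overlap was 61.2%. No such share was computed for ratios of other genes, so the 17 have no like background. A two-sided exact permutation test with 3 libraries against 3 cannot go below p = 0.10, and after Benjamini-Hochberg adjustment over the 23 pairs the smallest value was 0.135, so no ratio passed 0.05. The largest shifts were in SEC11C to SEC11A (log2 difference of the ratio -0.94) and SAR1B to SAR1A (-0.89). SEC61A2, SEC63 and SEC62 to SEC61A1 had -0.64, -0.63 and -0.60. SRP72 to SRP68 was nearly constant in control (0.685 ± 0.0016) and 0.620 ± 0.017 in DCBQ.

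**Figure D3:**
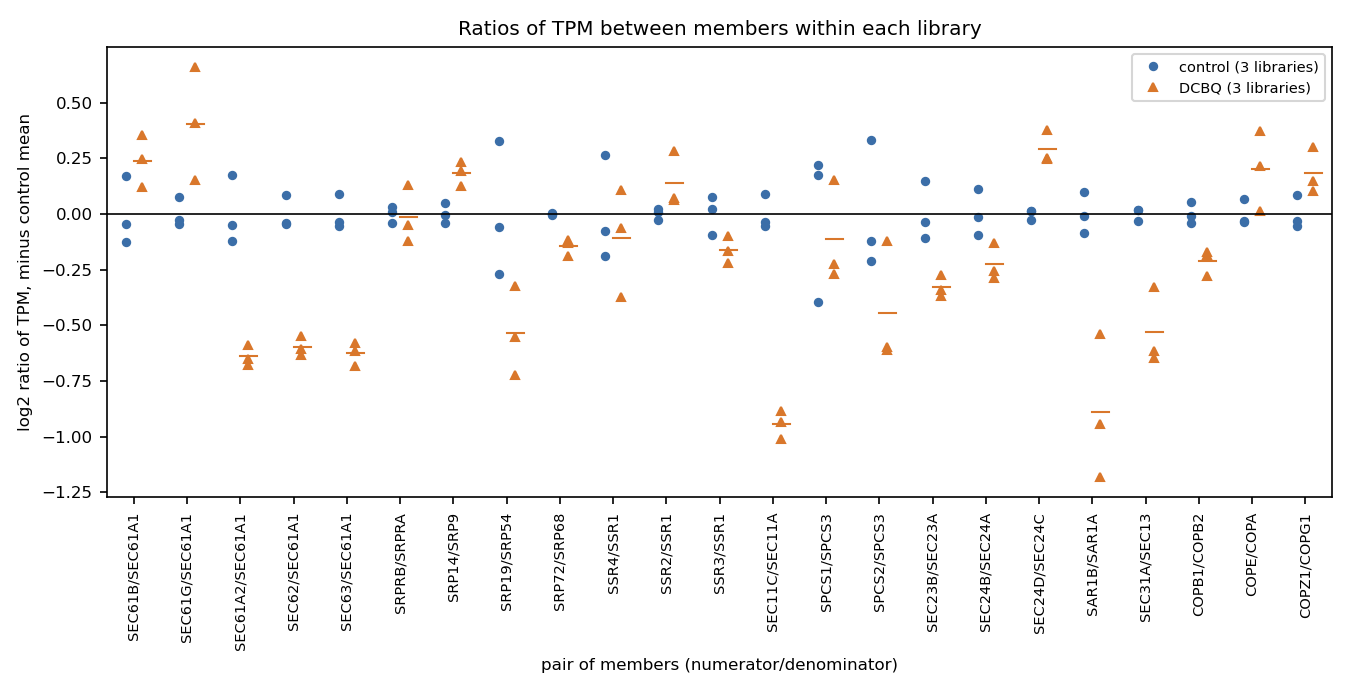
Log2 ratio of TPM between members within each library, with the control mean of the pair set to 0 (control circles, DCBQ triangles, line at the DCBQ mean). SEC11C/SEC11A and SAR1B/SAR1A lie lowest, at -0.94 and -0.89, and SEC61G/SEC61A1 highest, at 0.41.

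Other genes of the early secretory pathway were read from 8 lists chosen by function, 98 genes of which 95 were tested (BAG6, SEC16B and CTAGE1 fell under the filter). Of these 12 rose and 50 fell (12.6% and 52.6%), beside 13.4% and 39.5% of all tested genes, with a median of -0.19 beside -0.21. Under median-of-ratios scaling the counts became 28 higher and 21 lower (29.5% and 22.1%), beside 23.9% and 23.1% of all tested genes. The median of the related genes was then 0.05. The luminal and membrane partners of the channel all fell, 7 of 7, with a median of -0.79, and all 7 were also lower after median-of-ratios scaling. HSPA5 went from 1378 ± 17 to 315 ± 11 TPM (log2 difference -2.13, adjusted p = 2.7e-08), HYOU1, a chaperone that recharges it, from 269 ± 12 to 83.9 ± 0.88 TPM, and TRAM1, a membrane protein beside the channel, from 249.6 ± 8.0 to 144 ± 6.7 TPM.

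Oligosaccharyltransferase, which attaches glycans to chains at the channel, had 1 of 11 genes higher and 7 lower. Those are 9.09% and 63.6%, beside 13.4% and 39.5% of all tested genes. OST4, one of its smallest chains, rose from 129 ± 5.5 to 187 ± 14 TPM, and RPN1 and KRTCAP2 fell 1.23-fold and 1.33-fold. After median-of-ratios scaling 3 of the 11 were higher and 0 lower, beside 23.9% and 23.1% of all tested genes. The membrane complex and tail-anchor pathway, which insert membrane proteins, had 0 higher and 10 lower of 16 (0% and 62.5%). The smallest p-values were those of CAMLG (48.3 ± 2.4 to 26.4 ± 2.3 TPM), the receptor for tail-anchored cargo, with UBL4A (1.502-fold lower) and MMGT1 (1.49-fold lower). After median-of-ratios scaling 1 was higher and 4 lower (6.25% and 25%).

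Among vesicle genes, the ARF GTPase genes ARF3, ARF4 and ARF5 rose. The list of ARF genes, their regulators and COPI paralogs had 5 higher and 2 lower of 11, and 7 higher and 0 lower after median-of-ratios scaling. For this list and those below, the reference is 13.4% higher and 39.5% lower among all tested genes as deposited. After median-of-ratios scaling the reference is 23.9% and 23.1%. ARF5 rose from 179.6 ± 4.0 to 244 ± 4.8 TPM, ARF4 1.32-fold and ARF3 1.29-fold. Proteins of the ARF family load COPI onto Golgi membranes. The p24 family, which travels in both coats, had 1 higher and 5 lower of 9, with TMED9 rising from 87.0 ± 2.7 to 138 ± 6.3 TPM and TMED8 and TMED7 falling 1.48-fold and 1.21-fold. After median-of-ratios scaling its count was 4 higher and 1 lower. Cargo and retrieval receptors had 3 higher and 4 lower of 14, and 8 higher and 1 lower after median-of-ratios scaling. KDELR3, a receptor that returns chaperones to the endoplasmic reticulum, rose 1.41-fold and BCAP31 1.37-fold, while MCFD2, which exports clotting factors with LMAN1, fell 1.62-fold. KDELR3 had 34.5 ± 1.8 TPM in control. Its more abundant paralogs KDELR1 (386 ± 12 to 389 ± 3.1 TPM) and KDELR2 (174 ± 3.3 to 165 ± 1.2 TPM) did not pass the test as deposited. After median-of-ratios scaling both were called higher (0.25 and 0.16). Exit site factors had 1 higher and 4 lower of 7, and 2 higher and 3 lower after median-of-ratios scaling. MIA3 and MIA2, which load bulky cargo such as collagen and lipoproteins, fell 1.52-fold and 1.89-fold, and SEC31B, the minor paralog of SEC31A, fell 1.66-fold. The SNAREs and tethers that fuse vesicles had 1 higher and 11 lower of 20 (5% and 55%). The smallest p-values were those of GOSR2 (1.54-fold lower), USE1 (1.61-fold lower) and SCFD1 (1.54-fold lower). After median-of-ratios scaling 3 of the 20 were higher and 5 lower.

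**Figure D4:**
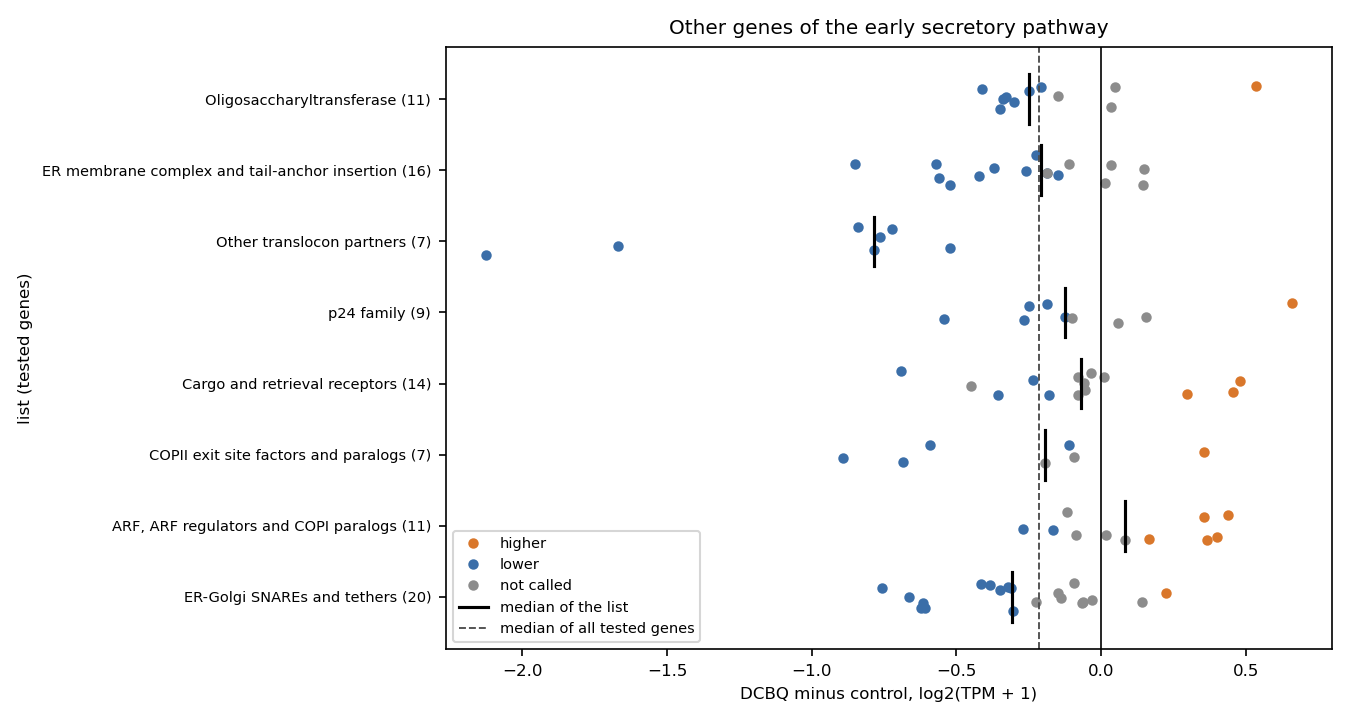
Difference between DCBQ and control on the log2(TPM + 1) scale for the tested genes of 8 related lists, coloured by limma call, with the list median (short line) and the median of all tested genes (dashed, -0.21). Translocon partners lie to the left with a median of -0.79, and the ARF list has a median of 0.08.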

How the data were processed

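The authors deposited 1 table of TPM for 60624 Ensembl gene identifiers in 6 libraries, and every column matched 1 library's labels and summed to 1000000. Per the submitters' processing notes StringTie 2.1.7, HISAT2 2.2.1, Trimmomatic 0.38, DESeq2 1.34.0 and FastQC were used, and the build was hg38. The roles of these tools, the annotation, strand use and treatment of multi-mapped reads were not given in the sources used. No 2 libraries were identical.

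The 16734 genes whose mean TPM reached 1 went into a limma 3.58.1 fit of log2(TPM + 1) in R 4.3.3 (eBayes with trend, group as the only term, two-sided, Benjamini-Hochberg over all tested genes). Differences carry a pseudocount of 1 and understate changes of low genes, while folds are ratios of mean TPM. On simulated data made from this comparison's 16734 genes, the test recovered 14% of 50 changes of 0.25, 62% of 50 changes of 0.5 and 90% of 50 changes of 1 on the log2 scale, with 10 false calls. That simulation held 50 changes of each size among 16734 genes, whereas 52.9% of all tested genes were called in the comparison itself. The p-value needed for a call depends on that share. Whether these recovery rates hold for the comparison itself was not tested. Within-library ratios used exact permutation tests in scipy 1.17.1. Coordinates and exons are from GENCODE 29 (GRCh38, 1-based), and promoter windows from RefSeq.

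The members and lists were chosen with earlier results of these data known. Every member is named, and of each related list the 3 genes with the smallest p, with KDELR1 and KDELR2 added beside KDELR3. In the alternatives, libraries were rescaled (by median of ratios, by quantile normalization, without mitochondrially encoded genes, or with each library's lowess trend on transcript length removed). Others set the pseudocount to 0.1 or 5, the filter to none or to 5 TPM, eBayes to no trend or robust, added array weights or a block for the replicate number, or dropped 1 library at a time.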

Additional observations from a re-analysis of the deposited data

How the results depend on the processing

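The counts of called members moved most with scaling. Under the other settings that kept all libraries, 10 to 12 members were higher and 12 or 13 lower. Against 11 higher and 13 lower as deposited, there were 22 and 5 after median-of-ratios scaling, 19 and 7 after quantile normalization, 22 and 6 after removal of the transcript length trend, and 17 higher without mitochondrially encoded genes (10 lower). The first 3 of these centre the libraries on each other. Among all tested genes, 13.4% were higher and 39.5% lower as deposited, and 23.9% and 23.1% after median-of-ratios scaling. The shares were 22.8% and 23.7% after quantile normalization. With the length trend removed they were 23.9% and 23.4% of the 16581 tested genes with a length. Shares by direction are not given here for the setting without mitochondrially encoded genes. The median difference of members, -0.05 as deposited, became 0.20, 0.086, 0.16 and 0.086 in that order, while the median of all tested genes became -0.00, -0.01, -0.00 and -0.10. Related genes had 28 higher and 21 lower after median-of-ratios scaling, 19 and 30 after quantile normalization, 27 and 25 after removal of the length trend, and 32 lower without mitochondrially encoded genes. With 1 library left out, 10 to 12 members were higher and 12 to 14 lower. With the replicate block, 11 members were higher and 12 lower, and only SSR3 lost its call. Same-numbered libraries had deviations correlated at -0.04 to 0.05. With 3 libraries per group such values cannot settle whether the numbers pair the libraries, so pairing is unknown.

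Of the members named below, SRP68 and SSR3 were called lower as deposited and the others were not called. After median-of-ratios scaling, differences turned positive for SRP54 (0.18), SRP68 (0.035), SSR1 (0.24), SSR3 (0.076), SSR4 (0.13), SEC11A (0.15), SEC23B (0.14), SEC24A (0.025), COPA (0.16) and ARCN1 (0.20). After quantile normalization they were 0.086 for SRP54, 0.17 for SSR1, 0.017 for SSR3, 0.0089 for SSR4, 0.081 for SEC23B, 0.063 for SEC24A, 0.045 for COPA and 0.051 for ARCN1. Without mitochondrially encoded genes they were 0.067 for SRP54, 0.13 for SSR1, 0.020 for SSR4, 0.042 for SEC11A, 0.029 for SEC23B, 0.052 for COPA and 0.086 for ARCN1. With the length trend removed they were 0.14 for SRP54, 0.17 for SSR1, 0.015 for SSR4, 0.050 for SEC11A, 0.15 for SEC23B, 0.093 for SEC24A, 0.23 for COPA and 0.16 for ARCN1. With array weights the SPCS1 difference was -0.042 and the SEC31A difference -0.0071, both near 0 as deposited. With 1 library left out, SSR1 ranged from -0.050 to 0.032, SPCS1 from -0.18 to 0.099 and SEC31A from -0.038 to 0.032, and on the log2 scale the SRPRB/SRPRA ratio differed by -0.088 to 0.039 and the SSR4/SSR1 ratio by -0.22 to 0.024.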

Other observations

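The 41 genes together had 3725 ± 25 TPM in control and 3814 ± 23 TPM in DCBQ (SD, n = 3 per group). The 4 SEC61 channel genes summed to 373 ± 2.9 TPM in control and 439 ± 19 TPM in DCBQ, and SEC62 with SEC63 to 89.4 ± 2.0 and 62.6 ± 1.6 TPM, neither with overlapping groups. The 4 TRAP genes summed to 455 ± 13 and 458 ± 3.3 TPM, with overlapping groups. All are sums of TPM as deposited, so they depend on library scaling. Among single tested genes 61.2% had no overlap, and no such share was computed for sums of other genes.

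Across the 41 genes, the difference between groups and the log2 transcript length had a Pearson r of -0.30, beside -0.12 across 16581 tested genes with a length. The points share the same 6 libraries, and genes are not independent replicates. With each library's trend with length removed, SRP9, SRP14, SEC61B and SEC61G, which encode short transcripts, had differences of 0.44, 0.62, 0.46 and 0.62, all called higher.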
